A study of Mus musculus with 38 samples.

Results

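A set of 10 mural cell genes, by which pericytes and vascular smooth muscle cells are usually recognised in the heart, was measured in the left ventricles of 38 mice. The pericyte genes were Rgs5, Abcc9, Kcnj8, Pdgfrb and Cspg4, and the smooth muscle genes were Notch3, Acta2, Myh11, Tagln and Cnn1. They were chosen by name, not by a measured value, and all 10 of them were among the 29564 genes of the expression tables and among the 13765 genes with enough reads to be tested. Every mouse was a wild-type C57BL6 animal (C57BL/6J in the study's methods) and gave 1 RNA library. The non_failing group had 8 mice. The others had been given a high-fat diet with L-NAME, a blocker of nitric oxide synthase, to bring on heart failure with preserved ejection fraction (HFpEF), and of these 8 received vehicle (HFpEF+Veh), 11 an inhibitor of the deacetylase HDAC6, TYA-018 (HFpEF+TYA-018), and 11 empagliflozin, which blocks the glucose transporter SGLT2 (HFpEF+SGLT2i). The labels used here give no age. Diet and L-NAME were given together, so their shares in a difference from non_failing cannot be told apart.

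Pericytes and smooth muscle cells are the mural cells of the vessel wall. Pericytes lie on capillaries inside the basement membrane that they share with the endothelium, and smooth muscle cells form the contractile coat of arteries, arterioles and veins. Endothelial PDGF-B draws mural cells to new vessels through the receptor encoded by Pdgfrb, and Jagged ligands on the endothelium act on Notch3 to mature the smooth muscle coat. The tone of both cells follows calcium entry and myosin light chain phosphorylation, and ATP-sensitive potassium (KATP) channels, built from the pore Kcnj8 (Kir6.1) and the sulfonylurea receptor Abcc9 (SUR2), hold the membrane hyperpolarised and the vessel relaxed when they open. Contractile genes of smooth muscle, Acta2, Myh11, Tagln and Cnn1 among them, are classical targets of serum response factor (SRF), which binds the CArG box and is helped there by myocardin. In a whole piece of ventricle these RNAs are a small part of the total, and fewer cells of a type and less RNA per cell cannot be told apart.

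The genes lie on 7 chromosomes of GRCm38 (GENCODE M21 annotation). Kcnj8 (chr6:142564837-142571614) and Abcc9 (chr6:142587862-142702315) stand side by side on the minus strand with 16.2 kb between them, so that both subunits of the vascular KATP channel come from 1 locus. Rgs5 is at chr1:169655501-169695813 and Acta2 at chr19:34241090-34255590. Cspg4 is at chr9:56865033-56899870, and the other smooth muscle genes are Notch3 (chr17:32120820-32166852), Myh11 (chr16:14194535-14291372), Tagln (chr9:45929619-45936058) and Cnn1 (chr9:22099216-22109630). Genes on the opposite strand overlap Abcc9, Notch3 and Tagln (5330439B14Rik, Gm17276, and Pcsk7 with Gm48529). The libraries were made with a strand-keeping kit, and whether the quantification used the strand is not given in the sources used here. Acta2 could share reads with the other actins and Myh11 with the non-muscle myosins. Of all stretches of 50 bases in the Acta2 transcripts 0.326% also occurred letter for letter in another gene, Actg1 among them, and the share was 0.34% for Myh11 (Myh9 and Myh10 among them), 0.614% for Abcc9 and 0.0866% for Notch3. None of the other 6 members shared a stretch of 50 bases, and none of the 10 shared one of 100. These are exact matches, and mapping that tolerates mismatches can share more.

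The sequences just before the start site are shown for the 3 members that any test of groups called, Acta2, Rgs5 and Abcc9 (250 bases before the RefSeq start, GRCm38.p6, 5′ to 3′ on the strand of the gene). Capitals mark a CArG box with at most 1 G or C in its A/T core, or the letters TGGGAA, which the Notch partner RBPJ can bind, both searched on either strand. These are the windows chr19:34255374-34255623 (minus strand), chr1:169655251-169655500 (plus strand) and chr6:142702275-142702524 (minus strand).
Acta2: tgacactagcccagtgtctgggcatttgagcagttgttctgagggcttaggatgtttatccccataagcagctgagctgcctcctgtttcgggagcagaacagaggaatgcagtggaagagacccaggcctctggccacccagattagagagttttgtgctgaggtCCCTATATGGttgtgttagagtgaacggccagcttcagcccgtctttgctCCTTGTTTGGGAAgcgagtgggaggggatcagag
Rgs5: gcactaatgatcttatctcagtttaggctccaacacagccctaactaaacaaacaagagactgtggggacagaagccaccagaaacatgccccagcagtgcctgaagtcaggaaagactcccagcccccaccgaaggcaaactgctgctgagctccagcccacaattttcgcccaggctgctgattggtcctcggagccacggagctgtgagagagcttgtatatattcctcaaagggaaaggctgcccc
Abcc9: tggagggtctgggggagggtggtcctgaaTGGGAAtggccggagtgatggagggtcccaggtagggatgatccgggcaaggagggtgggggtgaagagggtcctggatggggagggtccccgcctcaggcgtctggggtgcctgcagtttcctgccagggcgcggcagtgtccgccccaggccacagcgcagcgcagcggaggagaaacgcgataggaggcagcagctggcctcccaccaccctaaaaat
The Acta2 window held 2 such CArG boxes, CCCTATATGG from 84 to 75 bases before the start and CCTTGTTTGG from 34 to 25 bases before it, and the second runs into a TGGGAA at 27 to 22 bases. Abcc9 held 1 TGGGAA, from 221 to 216 bases before the start, and Rgs5 held neither motif. Apart from Pdgfrb, Myh11 and Tagln, which were not searched, a window was used for 7 of the 10 members. Of these 7, 1 (Acta2) held a CArG box with at most 1 G or C in its core, which 8.59% of 32851 windows in the genome hold when unbroken boxes are counted in, and 2 (Acta2 and Abcc9) held TGGGAA, which 21.6% hold. The unbroken CArG box was in none of the 7 and in 1.47% of all windows. A match of letters is a description and not a bound site, and boxes further out or in an intron are outside these windows.

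The depth of the libraries ran from 21500000 to 59300000 estimated counts, and 28.5% to 39.5% of them came from mitochondrial transcripts. Cspg4 and Cnn1, the members with the fewest reads, had 11.5 to 261 and 25.0 to 242 counts per library. The labels call the mice female and the methods call them male, and Y-linked transcripts were present in all 38 libraries (Ddx3y at 18.1 to 39 CPM, counts scaled to library size). Among the libraries, HFpEF+Veh mouse V2523 stood apart for liver RNA, with 10 hepatocyte markers summing to 1990 CPM against a group median of 7.92 (Apoa1, an apolipoprotein, was at 84.2 TPM against a group median of 0.503), and the non_failing libraries summed to 29.7 to 412. The highest non_failing sum, 412, was that of V2504. Results that involve these groups were also computed without V2523 and without non_failing mouse V2503, a pair chosen with earlier results of these data known. Endothelial markers, from the companions of mural cells in a vessel, were not called in any of the 6 comparisons (0 of 8 by edgeR). Kdr and Tie1, receptors of endothelial cells, had an unadjusted p under 0.05 in HFpEF+TYA-018 against HFpEF+Veh (log2 fold change -0.26 for both) and against HFpEF+SGLT2i (-0.27 and -0.24), and in the other 4 comparisons 0 of 8 did. The endothelial markers had medians of their summed level of 1080 CPM in non_failing, 1160 with vehicle, 1110 with TYA-018 and 1030 with empagliflozin.

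Compared per transcript length, in TPM (a level scaled for transcript length and library size), Rgs5 was the most abundant of the 10 at a mean of 131 TPM over all libraries, followed by Acta2 at 52.3, Tagln at 23.3 and Abcc9 at 16.1. Pdgfrb (9.54) and Kcnj8 (9.3) came next, then Myh11 (4.16), Notch3 (4.06), Cnn1 (1.05) and Cspg4 (0.262). The spread between mice of a group, as the coefficient of variation within groups, parted the sets. It was 14.2% for Pdgfrb, 15.1% for Rgs5, 17.8% for Kcnj8 and 19.5% for Abcc9, but 32.2% for Myh11, 34.8% for Tagln, 37.3% for Acta2 and 51.5% for Cnn1. Notch3, at 16.2%, varied like a pericyte gene, and the scarce Cspg4, at 48.5%, like a contractile one. A fold change of a given size was accordingly estimated with a wider interval for the contractile genes than for the abundant pericyte genes.

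**Figure D1:**
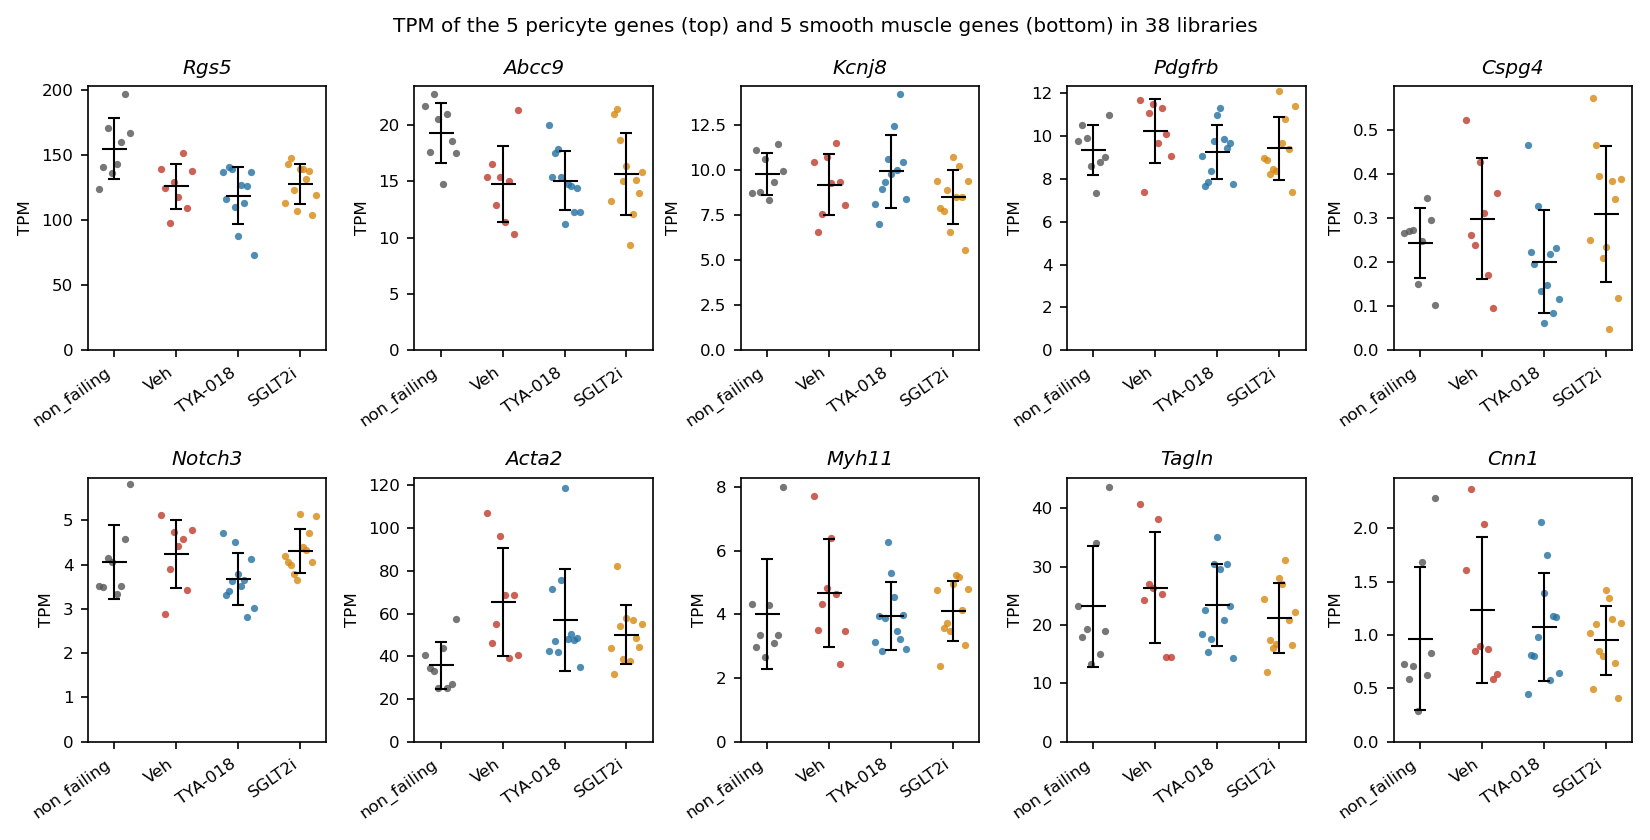
TPM of the 10 genes in each of the 38 libraries, on linear axes from 0, with 1 panel per gene, 1 column of points per group, and a line with bars for the group mean ± SD. Rgs5 runs from 124 to 197 TPM in non_failing and from 73.1 to 152 in the other groups, Acta2 from 25.3 to 57.3 in non_failing and from 31.5 to 119 in the others, and the ranges of the groups overlap for every gene.

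The first question was how the HFpEF hearts on vehicle differed from the non_failing hearts. Groups were compared by edgeR's quasi-likelihood test on the estimated counts, and a gene was called when its p, adjusted over all 13765 genes by the Benjamini-Hochberg method, was under 0.05. Fold changes come from that fit, which corrects for library composition by TMM scaling, and TPM do not carry this correction. Of the 5 pericyte genes, Rgs5 and Abcc9 fell, and none rose. None of the 5 smooth muscle genes passed the test. These 2 of 10 members compare with 3.15% of all genes tested in the same fit. The median log2 fold change was -0.20 over the pericyte genes and 0.13 over the smooth muscle genes, beside 0.01 over all genes. The 2 medians of the members were the values of Kcnj8 and Myh11. Over 38 fits that each left out 1 library, Kcnj8 ran from -0.24 to -0.14 and Myh11 from 0.02 to 0.32.

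Rgs5, a GTPase-activating protein that shortens signalling from vasoconstrictor receptors, measured 124 to 197 TPM in the non_failing mice (median 151, n = 8) and 97.6 to 152 TPM in HFpEF+Veh (median 127, n = 8). The means were 155 ± 23.6 and 126 ± 17.4 TPM (SD). All 8 HFpEF+Veh libraries lay below the non_failing mean, although the ranges overlapped between 124 and 152 TPM. The log2 fold change was -0.36 ± 0.10 (SE), a ratio of 0.779, with a 95% interval from -0.55 to -0.17 and an adjusted p of 0.0313 (edgeR). Without V2523 and V2503 the log2 fold change was -0.34 and the adjusted p 0.0717. Over 38 fits that each left out 1 library the values ran from -0.40 to -0.31, and the call was kept in 32 and lost without V2503, V2507, V2508, V2509, V2526 or V2530 (adjusted p up to 0.0841). It was also lost with scaling by library size alone (-0.29, adjusted p = 0.142), with no low-count filter (-0.35, adjusted p = 0.0549) and with limma on log2(TPM + 1) and log2(TPM + 0.1) (-0.30 in both, adjusted p = 0.126 and 0.14), and kept in DESeq2.

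Abcc9 encodes the regulatory subunit of KATP channels, in mural cells and, as another splice form, in cardiomyocytes. Its TPM were 14.8 to 22.8 in non_failing (median 19.5) and 10.3 to 21.3 in HFpEF+Veh (median 15.2), with means of 19.3 ± 2.67 and 14.8 ± 3.4 (SD, n = 8 each). The exception among the HFpEF+Veh mice was V2532, at 21.3 TPM, and the other 7 lay below the non_failing mean. Abcc9 fell by 0.46 ± 0.12 (SE) on the log2 scale (95% interval -0.70 to -0.22, adjusted p = 0.0251, edgeR). Without V2523 and V2503 the log2 fold change was -0.44 and the adjusted p 0.0532, and the call was kept in 32 of 38 fits without 1 library and lost without V2501, V2503, V2504, V2508, V2528 or V2530 (adjusted p up to 0.0704). Scaling by library size alone also ended the call (-0.39, adjusted p = 0.0898), as did limma on log2(TPM + 0.1) (-0.41, adjusted p = 0.0513), while DESeq2, limma on log2(TPM + 1) and the fit with no low-count filter kept it. Without V2523 and V2532, a pair added after the data had been seen, it was -0.58 (adjusted p = 0.00264). Since V2532 had the highest Abcc9 of its group, that fit gives no independent support for the fall. Some cardiomyocyte markers also fell: 4 of 8 were called lower in this comparison, among them Myl3 (-0.41), Tnnt2 (-0.43) and Myl2 (-0.37, adjusted p = 0.00256, 0.00459 and 0.0121), and none rose. Actn2 (-0.02), Actc1 (-0.05) and Ryr2 (-0.18) were not called, and neither was Myh6 (adjusted p = 0.992, edgeR). The 8 summed to 34900 to 46000 CPM in non_failing and 29700 to 36600 in HFpEF+Veh. The part of cardiomyocyte RNA in the Abcc9 difference was not tested.

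Kcnj8, the pore that Abcc9 pairs with, did not pass. It measured 8.30 to 11.4 TPM in non_failing and 6.57 to 11.5 in HFpEF+Veh, with means of 9.76 ± 1.18 and 9.16 ± 1.69, and a log2 fold change of -0.20 (95% interval -0.43 to 0.04, adjusted p = 0.439). Pdgfrb (chr18:61045150-61085061), the receptor for PDGF-B, had means of 9.37 ± 1.17 and 10.3 ± 1.49 TPM and a log2 fold change of 0.05, with an interval from -0.13 to 0.23 that leaves out a fall of the size estimated for Rgs5 or Abcc9. Cspg4, the NG2 proteoglycan of the pericyte surface, stood at 0.244 ± 0.0792 and 0.298 ± 0.137 TPM, and its interval, from -0.51 to 0.87, was too wide to show a change of that size. Of the set, then, the signalling regulator and the channel's regulatory subunit passed, and the pore, the growth factor receptor and the proteoglycan did not.

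Among the smooth muscle genes, Acta2 had the biggest difference in HFpEF+Veh. Smooth muscle alpha-actin, which it encodes, is the main actin of contractile mural cells and is also made by activated fibroblasts. It measured 25.3 to 57.3 TPM in non_failing (median 33.8) and 39.2 to 107 TPM in HFpEF+Veh (median 62.0), with means of 35.9 ± 11.0 and 65.2 ± 25.2 (SD, n = 8 each). In TPM all 8 HFpEF+Veh libraries were above the non_failing mean and 4 were above every non_failing library. The log2 fold change was 0.71 ± 0.23 (SE), with a 95% interval from 0.27 to 1.15, but the adjusted p of 0.077 (edgeR) missed the threshold of 0.05. DESeq2, limma on log2(TPM + 1) and scaling by library size alone placed it past the threshold, at 0.71, 0.81 and 0.80, and so did limma on log2(TPM + 0.1). With library size alone and with limma on log2(TPM + 0.1) it was the member called in place of Rgs5 and Abcc9. The highest non_failing value was that of mouse V2510, at 57.3 TPM, and Acta2 passed in 4 of the 38 fits without 1 library, those without V2510, V2523, V2532 or V2550 (adjusted p down to 0.0392). Without V2523 and V2503 it was 0.74 (adjusted p = 0.0902), and without V2523 and V2532 it was 0.85 (adjusted p = 0.0237). The pair with V2532 was added after the data had been seen. Both of its mice lay below the HFpEF+Veh median of Acta2, at 46.4 and 40.4 TPM, so that fit gives no independent support.

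Markers of activated fibroblasts were also higher in HFpEF+Veh. Of 5 myofibroblast markers tested, 2 rose against non_failing, Postn (periostin) by 1.03 and Comp by 1.86 on the log2 scale (adjusted p = 0.0112 and 0.0332), and the list of 6 summed to 37.2 to 60.7 CPM in non_failing and 54.6 to 205 in HFpEF+Veh. The highest sum, 205, was that of V2530, which also had 13.8 TPM of Comp against a group median of 1.23. Of 5 matrix genes of large vessels and valves 1 rose, Mfap4, by 1.19 on the log2 scale (adjusted p = 0.0214), and their sum was 147 to 235 CPM in non_failing and 149 to 508 in HFpEF+Veh. Of 8 fibroblast markers 2 rose, Lum by 0.86 and Pdgfra by 0.33 (adjusted p = 0.0019 and 0.0123), and they summed to 1080 to 1670 CPM in non_failing and 1030 to 2160 in HFpEF+Veh. Of the markers of tissue beside the ventricle wall, 2 of 5 atrial genes tested rose, Dkk3 by 1.44 and Bmp10 by 2.38 on the log2 scale (adjusted p = 0.00444 and 0.0252, Bmp10 at 0.162 TPM or less in every HFpEF+Veh library). The atrial list went both ways, with 3 log2 fold changes above 0, 2 below and a median of 0.14. Its lowest was Myl7, at -2.46, which was not called (adjusted p = 0.084, edgeR). The median of the atrial sum was 99.7 CPM in non_failing and 102 in HFpEF+Veh. None of the macrophage (6), epicardial (4) or Schwann cell (4) genes tested was called in edgeR (1, 3 and 1 had an unadjusted p under 0.05), and no adipocyte gene had enough reads to be tested. In these bulk samples, the part of fibroblasts and of large vessels in the Acta2 values was not tested. Of 6 markers of stressed cardiomyocytes, 1 was called against non_failing, another actin gene, and it rose in all 3 HFpEF groups. Acta1, the skeletal alpha-actin that cardiomyocytes make under load, was 1.48 higher on the log2 scale in HFpEF+Veh (adjusted p = 0.00141), 1.52 in HFpEF+TYA-018 (adjusted p = 0.000274) and 1.44 in HFpEF+SGLT2i (adjusted p = 0.000531). The median of the 6 was 0.54, 0.07 and 0.12 in the same order, and 5, 3 and 3 of them had values above 0. The natriuretic peptide genes Nppa (-0.28, -0.30 and -0.60) and Nppb (0.58, -0.28 and -0.12) were not called against non_failing. In HFpEF+TYA-018 against HFpEF+Veh, Nppb was called lower (-0.86, adjusted p = 0.03, edgeR).

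The other 4 smooth muscle genes had log2 fold changes between -0.02 and 0.22 in HFpEF+Veh against non_failing, with adjusted p of 0.812 to 0.948. Without V2523 and V2503 the sign turned for Notch3 (0.04) and for Cnn1 (-0.04), which had its highest HFpEF+Veh level in V2523, at 2.37 TPM. Notch3, the receptor, measured 4.06 ± 0.829 TPM in non_failing and 4.24 ± 0.765 in HFpEF+Veh, with an interval of the log2 fold change from -0.22 to 0.18. Myh11, the smooth muscle myosin heavy chain, measured 4.01 ± 1.72 and 4.67 ± 1.70 TPM (interval -0.29 to 0.55). Tagln, the actin-binding transgelin (SM22 alpha), measured 23.2 ± 10.4 and 26.4 ± 9.50 TPM (interval -0.41 to 0.51). Cnn1, calponin 1, measured 0.967 ± 0.666 and 1.23 ± 0.680 TPM (interval -0.47 to 0.92). Increases of the size estimated for Acta2 lay outside the intervals of Notch3, Myh11 and Tagln and inside that of Cnn1. These intervals are from the fit on all libraries. Over 38 fits without 1 library the log2 fold changes ran from -0.05 to 0.05 for Notch3 and from 0.02 to 0.32 for Myh11. Those of Tagln ran from -0.07 to 0.21 and those of Cnn1 from 0.04 to 0.48.

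**Figure D2:**
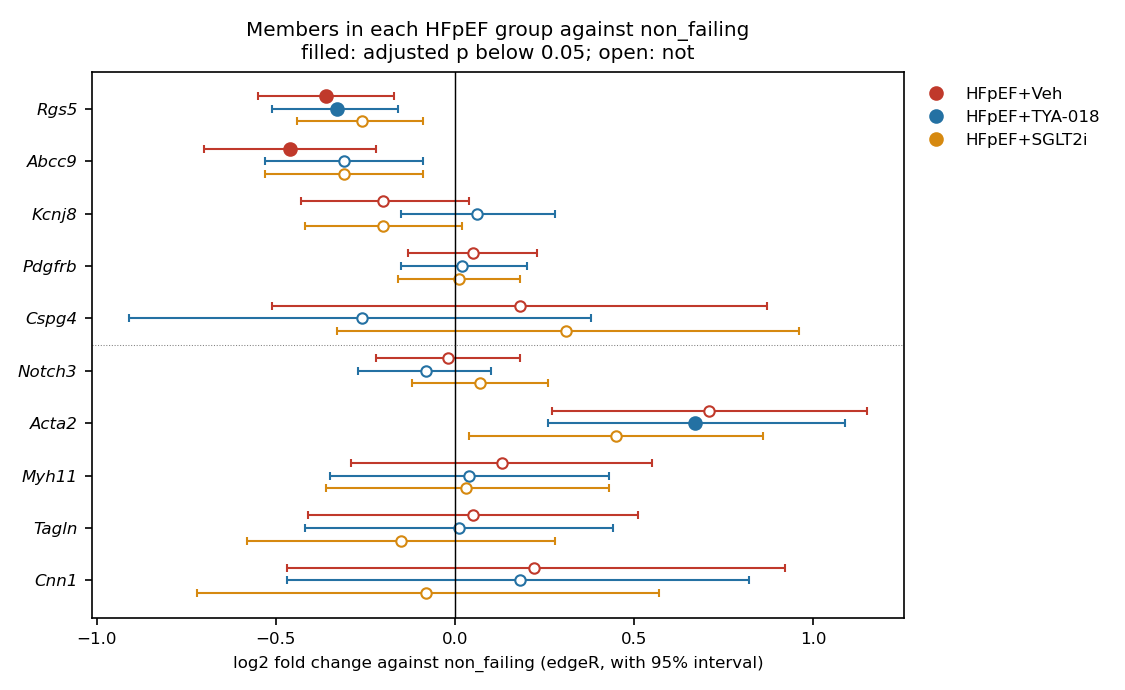
Log2 fold changes of the 10 genes in each HFpEF group against non_failing (horizontal axis) with 95% intervals (edgeR), where filled points passed the adjusted p threshold of 0.05 and open points did not. Rgs5 (-0.36) and Abcc9 (-0.46) passed in HFpEF+Veh against non_failing, Rgs5 (-0.33) and Acta2 (0.67) in HFpEF+TYA-018, and none in HFpEF+SGLT2i.

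The next comparisons asked whether either drug moved these genes in HFpEF hearts. With TYA-018 against vehicle, 0 of the 10 members passed in edgeR, where 1.93% of all genes did, and 0 passed in DESeq2 and limma. The genes called over the whole table included 10 of 10 hepatocyte markers, lower with TYA-018 and, in the comparison that follows, lower with empagliflozin (median log2 fold changes -6.25 and -5.83), beside the 1990 CPM of V2523 in the vehicle group. The member with an unadjusted p under 0.05 was Kcnj8, at 7.01 to 14.2 TPM (9.91 ± 2.01, n = 11) against 6.57 to 11.5 with vehicle. Its log2 fold change was 0.26 (95% interval 0.04 to 0.48, adjusted p = 0.213). The values of Rgs5 (0.03), Abcc9 (0.15), Pdgfrb (-0.03) and Acta2 (-0.04) were near 0, and the interval of Rgs5, from -0.15 to 0.20, left out a gain of 0.36, the size of the fall with vehicle. Cspg4 had -0.44, with an interval from -1.08 to 0.20. All 5 smooth muscle genes had log2 fold changes from -0.09 to -0.04, beside -0.01 over all genes.

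With empagliflozin against vehicle, again 0 of 10 passed in edgeR, DESeq2 or limma, none had an unadjusted p under 0.05, and the background was 0.85% of genes. Acta2 measured 31.5 to 82.4 TPM (50.1 ± 13.7, n = 11), and 10 of the 11 libraries lay below the HFpEF+Veh mean of 65.2. Its log2 fold change was -0.26 with an interval from -0.67 to 0.15 (adjusted p = 0.718), and ran from -0.36 to -0.14 over 38 fits that each left out 1 library. Rgs5 (0.10), Abcc9 (0.15), Kcnj8 (0.00) and Pdgfrb (-0.04) had intervals that all lay between -0.22 and 0.37. Between the drugs, TYA-018 against empagliflozin, 0.0% of all 13765 genes passed in edgeR (1821 had an unadjusted p under 0.05, and DESeq2 called 185), and so did 0 of 10 members by edgeR, DESeq2 or limma. Kcnj8 was again the member with an unadjusted p under 0.05 in edgeR, at 9.91 ± 2.01 TPM with TYA-018 and 8.47 ± 1.51 with empagliflozin (log2 fold change 0.26, interval 0.06 to 0.47, adjusted p = 0.253). Each of these 3 comparisons shares a group of mice with the others.

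Against the non_failing hearts, the hearts on TYA-018 were called for Rgs5 and Acta2, 2 of 10 members beside 7.39% of all genes. Rgs5 was 73.1 to 141 TPM (median 126, mean 119 ± 22.1, n = 11), and all 11 libraries lay below the non_failing mean. Rgs5 fell by 0.33 ± 0.09 (SE) on the log2 scale (interval -0.51 to -0.16, adjusted p = 0.0171), and kept its call in 37 of 38 fits without 1 library (not without V2509, adjusted p = 0.0579) and without V2523 and V2503 (-0.33, adjusted p = 0.0333). Acta2 was 35.1 to 119 TPM (median 47.9, mean 57.1 ± 23.9), with 10 of 11 libraries above the non_failing mean. It rose by 0.67 ± 0.21 (SE) on the log2 scale (interval 0.26 to 1.09, adjusted p = 0.0438). This call was kept in 29 of 38 fits without 1 library, and was lost without V2502, V2503, V2504, V2508, V2509, V2546, V2549, V2550 or V2561 (0.51 and adjusted p = 0.102 without V2550) and without V2523 and V2503 together (0.65, adjusted p = 0.0786). It was also lost with scaling by library size alone (0.62, adjusted p = 0.063), with no low-count filter (0.67, adjusted p = 0.0553), with limma on log2(TPM + 1) and log2(TPM + 0.1) (0.63 and 0.64, adjusted p = 0.0762 and 0.0791) and in a model of these 2 groups (0.66, adjusted p = 0.0677), and kept in DESeq2. The highest Acta2 value of the study, 119 TPM, was that of V2550. Abcc9 had 11.2 to 20.0 TPM (mean 15.1 ± 2.63), and its log2 fold change of -0.31 had an adjusted p of 0.079 (0.0163 in a model of these 2 groups). Markers of other cells moved in this comparison too. Of 10 hepatocyte markers 9 fell with TYA-018, where they summed to 1.82 to 7.53 CPM, and 8 fell with empagliflozin, at 2.41 to 17.6 CPM, both against the 29.7 to 412 CPM of non_failing. With TYA-018 1 of 8 fibroblast markers rose, Lum (0.54, adjusted p = 0.0268), 0 of 5 myofibroblast markers passed in edgeR (1 had an unadjusted p under 0.05), and 1 of 8 cardiomyocyte markers fell, Myl3 (-0.31, adjusted p = 0.00814). Of 5 atrial genes tested 1 rose, Bmp10 (2.69, adjusted p = 0.00359), and of 4 Schwann cell genes tested 1 fell, Sox10 (-0.62, adjusted p = 0.0232). The atrial log2 fold changes went both ways, 3 above 0 and 2 below. The median of the atrial sum was 91.9 CPM with TYA-018 and 99.7 in non_failing. The part of these markers of other cells in the Rgs5 and Acta2 values was not tested.

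The hearts on empagliflozin had the same 3 genes with an unadjusted p under 0.05 against non_failing, and none past the adjusted threshold in edgeR (0 of 10, beside 6.45% of all genes; DESeq2 called 1, Rgs5, and limma 0). Rgs5 was 104 to 148 TPM (median 132, mean 128 ± 15.2, n = 11), with all 11 libraries below the non_failing mean and a log2 fold change of -0.26 (interval -0.44 to -0.09, adjusted p = 0.0716). Abcc9 was 9.37 to 21.4 TPM (mean 15.7 ± 3.64), and its log2 fold change was -0.31 (adjusted p = 0.0878). Of 8 cardiomyocyte markers 4 fell in this comparison, Myl2 (-0.37), Myl3 (-0.34), Tnnt2 (-0.37) and Tnni3 (-0.32, adjusted p = 0.00348, 0.00388, 0.00448 and 0.00632), and the 8 summed to 23800 to 37900 CPM with empagliflozin. Of 4 epicardial genes tested 2 fell, Upk3b (-3.98) and Lrrn4 (-3.5, adjusted p = 0.00448 and 0.0196), and of 5 atrial genes 1 rose, Bmp10 (3.39, adjusted p = 0.00024). The epicardial list summed to 7.12 to 61.9 CPM in non_failing (median 12.5) and 6.36 to 22.5 with empagliflozin (median 9.11). Among the atrial genes 3 log2 fold changes were above 0 and 2 below. The median of the atrial sum was 79.8 CPM with empagliflozin and 99.7 in non_failing. Of 8 fibroblast markers 1 rose, Pdgfra (0.35, adjusted p = 0.00211), and 1 fell, Tcf21 (-0.43, adjusted p = 0.0324). Their part in the values of the members was not tested. Acta2 had a log2 fold change of 0.45 (interval 0.04 to 0.86, adjusted p = 0.221). A test for any difference among the 4 groups by edgeR called Rgs5 (adjusted p = 0.0281) and Abcc9 (adjusted p = 0.0424), 2 of 10 members beside 9.5% of all genes, but not Acta2 (adjusted p = 0.0869). DESeq2 called 3 members in its test for any difference. The 3 comparisons with non_failing share those 8 mice, so that they are not independent of each other.

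In mean TPM, the order of the groups for Rgs5 was non_failing, empagliflozin, vehicle and TYA-018, and for Abcc9 non_failing, then empagliflozin, TYA-018 and vehicle. For Acta2 the order was vehicle, TYA-018, empagliflozin and non_failing. By edgeR in the model of the 4 groups no neighbours in these 3 orders were called different, while DESeq2 called Rgs5 between non_failing and empagliflozin (adjusted p = 0.0407). For the other 7 genes no pair of groups was called different by edgeR, and in mean TPM the highest and the lowest group were 9.91 and 8.47 for Kcnj8, 10.3 and 9.24 for Pdgfrb, 0.310 and 0.201 for Cspg4, 4.31 and 3.68 for Notch3, 4.67 and 3.96 for Myh11, 26.4 and 21.1 for Tagln and 1.23 and 0.949 for Cnn1.

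Ratios within a library set 2 members of a set against each other, and a factor that scales the whole library drops out of them. They were taken from log2 CPM, which are not corrected for transcript length, so that they can be compared between groups but do not give the relative abundance of the 2 transcripts. The pairs were chosen after the values had been seen, so the ratios are given with no test. Log2 of Acta2 over Myh11 was 1.02 ± 0.21 in non_failing (SD, n = 8). It was 1.58 ± 0.51 with vehicle (n = 8), 1.59 ± 0.32 with TYA-018 (n = 11) and 1.41 ± 0.46 with empagliflozin (n = 11). It was above every non_failing library in 6 of 8, 10 of 11 and 7 of 11 libraries of these groups. Log2 of Rgs5 over Pdgfrb was 3.28 ± 0.26 in non_failing, 2.89 ± 0.27 with vehicle, 2.92 ± 0.34 with TYA-018 and 3.02 ± 0.22 with empagliflozin, and it was below every non_failing library in 5 of 8, 5 of 11 and 4 of 11. Log2 of Abcc9 over Kcnj8, the 2 subunits of the channel, was 2.44 ± 0.25, 2.17 ± 0.43, 2.08 ± 0.40 and 2.32 ± 0.45 in the same order. Without V2523 and V2503, the difference of HFpEF+Veh from non_failing was 0.58 for Acta2 over Myh11 (0.56 with them), -0.45 for Rgs5 over Pdgfrb (-0.39 with them) and -0.29 for Abcc9 over Kcnj8 (-0.27 with them).

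**Figure D3:**
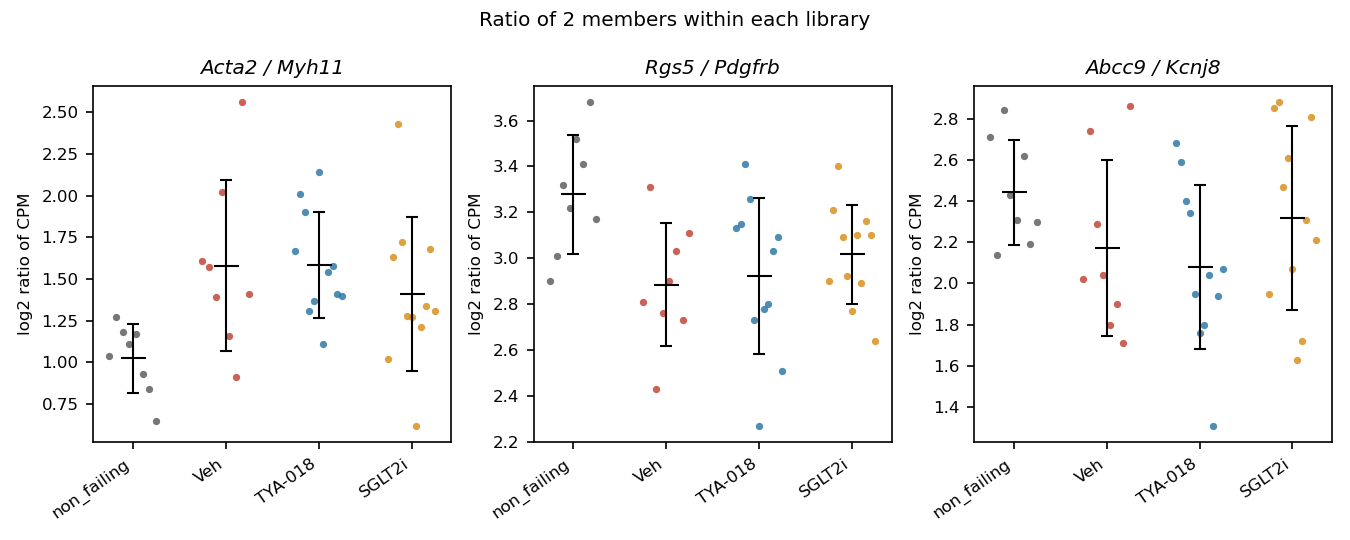
Log2 ratios of CPM within each library of Acta2 to Myh11, Rgs5 to Pdgfrb and Abcc9 to Kcnj8, 1 point per library by group, with a line and bars for the group mean ± SD. The Acta2 to Myh11 ratio averages 1.02 in non_failing and 1.41 to 1.59 in the HFpEF groups, and the Rgs5 to Pdgfrb ratio 3.28 against 2.89 to 3.02.

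Beyond the 5 members, 13 other pericyte genes were measured, and in HFpEF+Veh against non_failing 0 of them passed in edgeR (3 had an unadjusted p under 0.05), with a median log2 fold change of -0.01. Against non_failing the median was -0.11 with TYA-018, where 7 of the 13 were lower. With empagliflozin it was -0.20, and 12 of the 13 were lower. Over all genes 3.15% were called with vehicle against non_failing, 7.39% with TYA-018 and 6.45% with empagliflozin, and the counts of the lists that follow are to be read beside these shares. Steap4, a metalloreductase, fell with TYA-018 (-0.36, adjusted p = 0.0307) and with empagliflozin (-0.36, adjusted p = 0.0373) against non_failing, from 10.6 ± 1.54 TPM in non_failing to 8.35 ± 1.69 and 8.24 ± 1.23. With vehicle Steap4 was 8.61 ± 2.00 TPM, with a log2 fold change of -0.38 that missed the threshold (adjusted p = 0.0653). No other gene of this list was called between a pair of groups by edgeR. The test for any difference among the 4 groups called Vtn, which encodes vitronectin (adjusted p = 0.0384, beside 9.5% of all genes), with log2 fold changes against non_failing of 0.03 with vehicle, -0.34 with TYA-018 and -0.39 with empagliflozin (adjusted p = 0.949, 0.111 and 0.0692).

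Of 16 other contractile genes of smooth muscle, 1 was called, Ramp1, the partner protein that turns the calcitonin receptor-like receptor into a receptor for the vasodilator CGRP. Ramp1 fell in all 3 HFpEF groups, from 2.92 ± 0.356 TPM in non_failing to 1.89 ± 0.596 with vehicle, 1.36 ± 0.299 with TYA-018 and 1.40 ± 0.478 with empagliflozin (log2 fold changes -0.75, -0.99 and -1.08, adjusted p = 0.02, 0.000274 and 8.22e-05). The median log2 fold change of the 16 genes with vehicle was 0.05. Among 4 SRF and myocardin factors tested, Myocd, which encodes myocardin, fell in all 3 HFpEF groups (-0.69, -0.68 and -0.67, adjusted p = 0.031, 0.0103 and 0.0135), from 3.79 ± 0.476 TPM to 2.48 ± 0.802, 2.37 ± 0.828 and 2.40 ± 0.596. Mkl2, a relative of myocardin, rose with empagliflozin (0.36, adjusted p = 0.0204). Myocardin is made by cardiomyocytes as well as by smooth muscle, and which cells the RNA came from was not tested. In the same comparisons Myh11, Tagln and Cnn1 were not called in either direction, while Acta2 rose with TYA-018.

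Of 5 PDGF genes besides Pdgfrb, Pdgfra, the receptor of fibroblasts, rose with vehicle (0.33, adjusted p = 0.0123) and with empagliflozin (0.35, adjusted p = 0.00211), and 0 of 5 passed with TYA-018 in edgeR (1 had an unadjusted p under 0.05, Pdgfra at 0.16). Of 13 Notch pathway genes besides Notch3, 0 passed with vehicle in edgeR (2 had an unadjusted p under 0.05) and 0 with TYA-018 (2 likewise), and Nrarp, a Notch target that feeds back on the pathway, fell with empagliflozin (-0.55, adjusted p = 0.0377). Nrarp had -0.53 with vehicle and -0.43 with TYA-018 (adjusted p = 0.112 and 0.109), and between the drugs and vehicle it was not called. Abcc8, the other sulfonylurea receptor, was not called (-0.23 with vehicle), and Kcnj11, the other pore, was too low to be tested. Of 11 receptors and effectors of vessel tone tested, Agtr1a, the angiotensin II receptor, fell with vehicle (-0.56, adjusted p = 0.0126) and with empagliflozin (-0.46, adjusted p = 0.0168), and the calcium channel genes Cacna1c (0.62, adjusted p = 0.0025) and Cacna1h (0.67, adjusted p = 0.0233) rose with empagliflozin. Agtr1a had -0.32 with TYA-018 (adjusted p = 0.11). Cacna1c had 0.30 with vehicle and 0.35 with TYA-018 (adjusted p = 0.293 and 0.097), and Cacna1h had 0.26 and 0.45 (adjusted p = 0.553 and 0.134). All of these values are against non_failing.

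How the genes varied together among mice of the same group was read from the correlation of log2 CPM after each group's mean had been taken off, over 38 libraries, with 100000 permutations within groups and adjustment over the 45 pairs. Correlations were positive throughout the smooth muscle set and of mixed sign in the pericyte set. Among the 10 pairs of smooth muscle genes r was 0.22 to 0.92 with a median of 0.60, all were positive, and 8 passed. Among the 10 pericyte pairs r was -0.42 to 0.68 with a median of 0.08, 5 were positive, and 2 passed. In log2(TPM + 1) the median was 0.22 for the pericyte pairs and 0.60 for the smooth muscle pairs. Of the 25 pairs across the sets 4 passed, with a median r of 0.09.

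Myh11 and Tagln were the tightest pair (Pearson r = 0.92, Spearman rho = 0.89, permutation p = 1e-05, the smallest that these permutations can give, adjusted p = 0.00015), and r was 0.90 without the 2 libraries farthest from the median of Myh11. Tagln with Cnn1 had r = 0.83 and Myh11 with Cnn1 r = 0.77. Acta2 followed them less closely, with r = 0.61 for Myh11, 0.59 for Tagln and 0.49 for Cnn1, and Notch3 had r = 0.33 with Acta2 and 0.22 with Cnn1, the 2 pairs of the set that did not pass. The pericyte pairs that passed were Abcc9 with Cspg4 (r = 0.68, adjusted permutation p = 0.000225) and Kcnj8 with Pdgfrb (r = 0.65, adjusted permutation p = 0.00054). The channel subunits Abcc9 and Kcnj8, neighbours on chromosome 6, had r = -0.28 (adjusted permutation p = 0.199). Pdgfrb also passed with 3 smooth muscle genes, with r = 0.58 for Myh11, 0.57 for Notch3 and 0.53 for Tagln, while its r was 0.33 with Acta2 and 0.28 with Cnn1 (adjusted permutation p = 0.115 and 0.149). Abcc9 ran opposite to Tagln (r = -0.44, adjusted permutation p = 0.0152). In log2(TPM + 1) in place of log2 CPM, r was -0.18 for Abcc9 with Pdgfrb (-0.42 in CPM) and 0.42 for Rgs5 with Abcc9 (0.18 in CPM), and without V2523 and V2503 it was 0.45 for Notch3 with Cnn1.

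**Figure D4:**
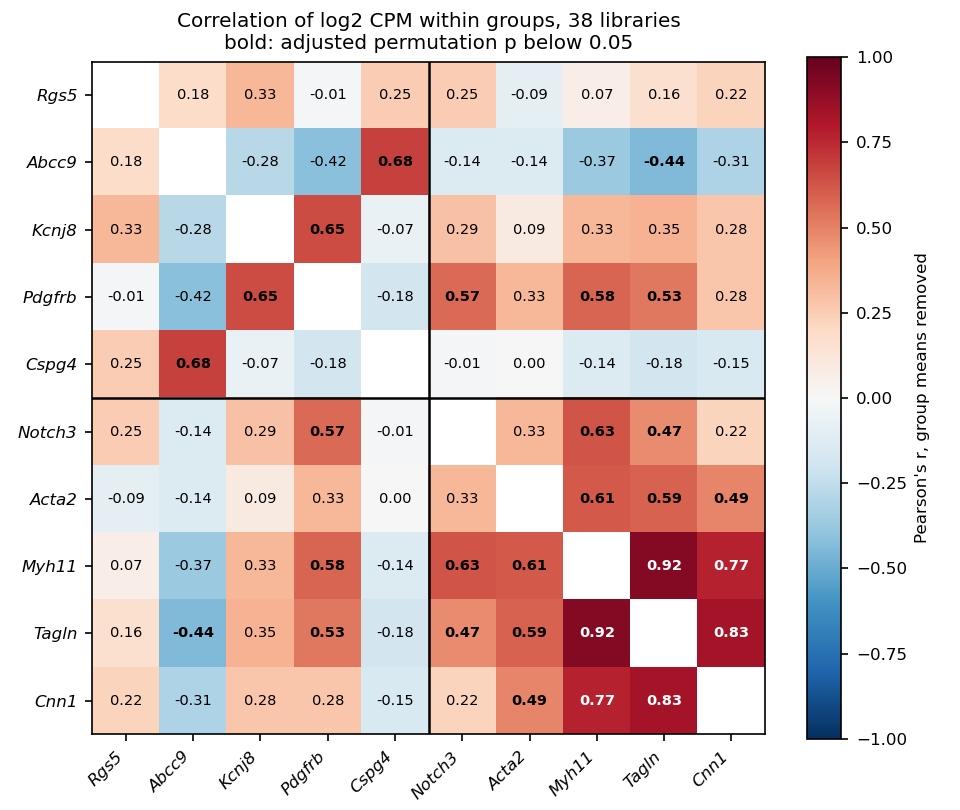
Pearson correlations between the 10 genes over 38 libraries after removal of group means, as a colour matrix with r in each cell (bold where the adjusted permutation p was below 0.05), pericyte genes first and smooth muscle genes after them. The block of Acta2, Myh11, Tagln and Cnn1 holds values from 0.49 to 0.92, and the pericyte block runs from -0.42 to 0.68.

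Some members varied with properties of the libraries, which were examined after the values had been seen (30 relations of the 10 members with 3 measures). The effective length of transcripts that the quantification reports was 100 ± 3.33% of the mean over libraries in non_failing, 98.7 ± 5.44% with vehicle, 97.5 ± 5.58% with TYA-018 and 102 ± 4.55% with empagliflozin. Within groups, Abcc9 was higher where this length was greater (r = 0.73, Spearman rho = 0.74, adjusted permutation p = 0.0003, r = 0.64 without the 2 farthest libraries) and where the mitochondrial share was lower (r = -0.69, adjusted permutation p = 0.00075). Pdgfrb ran the other way with length (r = -0.61, adjusted permutation p = 0.0026), as did Kcnj8 (r = -0.47, adjusted permutation p = 0.0282) and Tagln (r = -0.44, adjusted permutation p = 0.0282), and Cspg4 ran with it (r = 0.47, adjusted permutation p = 0.0282). With the total count, Abcc9 had r = 0.58 (adjusted permutation p = 0.00893) and Tagln -0.41 (adjusted permutation p = 0.0312), and Tagln also had r = 0.40 with the mitochondrial share (adjusted permutation p = 0.045). With length, Rgs5 (r = 0.21, adjusted permutation p = 0.309) and Acta2 (r = -0.25, adjusted permutation p = 0.246) did not pass. The opposite signs of Abcc9 and Cspg4 on one side and Pdgfrb and Kcnj8 on the other are those of the pairs above, and the part of effective length in those pairs was not tested.

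With the effective length as a covariate, the differences of HFpEF+Veh from non_failing were -0.35 for Rgs5 (adjusted p = 0.0282), -0.42 for Abcc9 (adjusted p = 0.00212) and 0.66 for Acta2 (adjusted p = 0.0816), and in HFpEF+SGLT2i Rgs5 (-0.28, adjusted p = 0.0326) and Abcc9 (-0.39, adjusted p = 0.000688) then fell too. Acta2 with TYA-018 was 0.60 in that fit (adjusted p = 0.0675). With the mitochondrial share as a covariate instead, Abcc9 was -0.52 (adjusted p = 0.000332) and Acta2 0.75 (adjusted p = 0.0382) in HFpEF+Veh. Abcc9 then fell in HFpEF+SGLT2i as well (-0.30, adjusted p = 0.0193). The directions of Rgs5, Abcc9 and Acta2 against non_failing were the same in both of these fits in all 3 HFpEF groups.

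**Figure D5:**
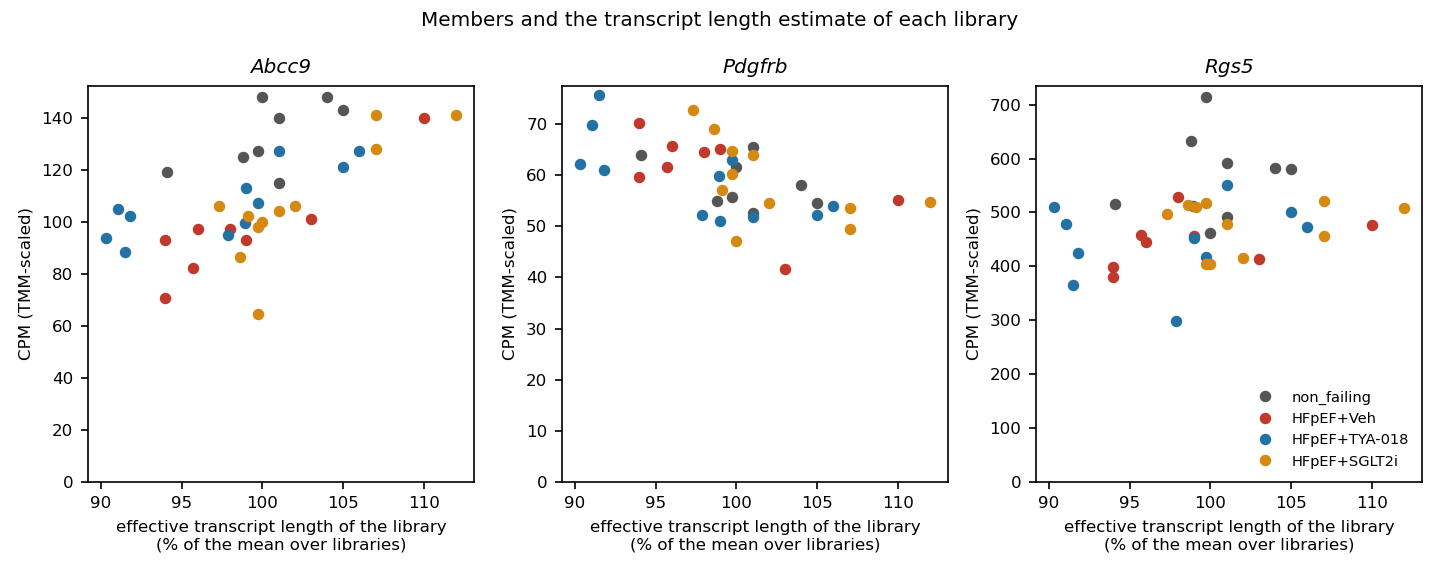
Scaled CPM of Abcc9, Pdgfrb and Rgs5 (vertical axes, from 0) against the effective transcript length of each library as a percent of the mean over libraries (horizontal axes), 1 point per library, coloured by group. Abcc9 climbs with length (within-group r = 0.73), Pdgfrb declines with it (r = -0.61) and Rgs5 shows little relation (r = 0.21), and HFpEF+Veh mouse V2532, with 21.3 TPM of Abcc9, has the greatest length of its group at 110%.

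The genes whose pattern over the 38 libraries was most like that of each set were looked up among 10913 genes by the within-group correlation with the set's mean, as a description with no test. For the smooth muscle mean they were Tpm2 (r = 0.89), a tropomyosin, Lmod1 (0.84), the leiomodin of smooth muscle, Mylk (0.83), the myosin light chain kinase, Ccdc3 (0.77) and Olfr78 (0.72). For the pericyte mean the values were lower, with Nr2f1 and S1pr3 at 0.63, Ap1s2 at 0.54, and Nin and Wdr20 at 0.53. Single members, looked up after their values had been seen, had neighbours of different kinds. Abcc9 was closest to Ppp2r3a, Akap6 and Hsdl2 (0.91 each) and Sod2 (0.90), of which Akap6 encodes an anchoring protein of the cardiomyocyte nuclear envelope and Sod2 the mitochondrial superoxide dismutase. Kcnj8 was closest to Fam110a and Rasl12 (0.69 each), Rgs4 (0.65) and Higd1b (0.64), and Pdgfrb to Tbx2 (0.84) and Rasl12 (0.80). For Acta2 the nearest was Pdgfa (0.65). Both values of a point come from 1 library, with its depth, effective length and mixture of cells, and the part of these in the likeness was not tested.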

How the data were processed

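RNA of the left ventricle was measured in 38 libraries, grouped by the sample titles. The authors trimmed reads with fastp, quantified them with Salmon 1.6.0 against GENCODE transcripts of GRCm38, and summed transcripts to genes with tximport. The labels and the methods disagree on genome build, sex, read length, read pairing and length of treatment. The deposited tables hold estimated counts, which are not whole numbers, and TPM, which are scaled for transcript length and library size. Another deposited table of effective gene lengths holds other values, used as a measure of each library and, gene by gene, as the offset of 1 alternative fit. Estimated counts were rounded. Of 29564 genes, 7693 had no count and 13765 passed filterByExpr.

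Differences were tested with edgeR 4.0.16 (R 4.3.3) by its quasi-likelihood test, in 1 model of the 4 groups with TMM scaling and Benjamini-Hochberg adjustment over all genes tested (threshold 0.05), separately from the TPM that are printed as levels. Each mouse gave 1 library, and p-values measure the spread between mice. Correlations used log2 CPM with a prior count of 2. Alternatives were DESeq2 1.42.0, limma 3.58.1 on log2(TPM + 1) and log2(TPM + 0.1) for genes detected in at least 90% of libraries, scaling by library size alone, no low-count filter, a length offset, models of 2 groups, and libraries left out. Covariates, library pairs with V2532, relations with library measures and ratios were added after the data had been seen. Scripts were tested on simulated data. The members and the gene lists (155 symbols) were chosen with earlier results of these data known. Named genes are all 10 members, genes of the lists, and the 5 genes most correlated with each set's mean. For the lists these are mainly genes that passed, at most 3 per comparison by smallest p. The exception is the cardiomyocyte markers with empagliflozin against non_failing, where all 4 that passed are named. List genes named for a comparison they did not pass, such as Kdr, Tie1, Nppa, Nppb and Myl7, were chosen with their values known. So were any other genes. Promoter sequences came from RefSeq (GRCm38.p6), matched by symbol. Every sample column was matched to its label.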

Additional observations from a re-analysis of the deposited data

Results flagged for a closer look

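In the non_failing group 1 library stood far from the others for Myh11: mouse V2510 had 8.01 TPM and the next highest 4.34, a gap of 0.686 of the group's range against a critical value of 0.526. Of the 20 groups of values with 4 to 10 mice that were examined this way, 1 was found, and chance gives about 5%. The same mouse had the highest non_failing values of Acta2 (57.3 TPM), Tagln (43.7 TPM), Cnn1 (2.28 TPM) and Notch3 (5.82 TPM), and the lowest sum of the cardiomyocyte markers in its group (34900 CPM).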

How the results depend on the processing

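Rgs5, Abcc9 and Acta2 kept their direction against non_failing in every alternative that was run, while their calls depended on the setting. In HFpEF+Veh against non_failing 2 members were called. The count was 1 with scaling by library size alone and with limma on log2(TPM + 0.1), Acta2 in both, and 1 with no low-count filter. The count was 3 (Acta2 added) with DESeq2, with the mitochondrial share as a covariate and without V2523 and V2532, 0 without V2523 and V2503, and from 0 to 3 without 1 library. It was 0 without V2503, V2508 or V2530. In HFpEF+TYA-018 against non_failing it was 2, and 1 with library size alone, with no filter, with limma at either pseudocount, without V2523 and V2503 and with the effective length as a covariate, 3 (Abcc9 added) with the mitochondrial share as a covariate, and 0 to 3 without 1 library (0 without V2509). In the model of 2 groups it was 2 there, with Abcc9 called and Acta2 not. In HFpEF+SGLT2i against non_failing it was 0, and 1 with DESeq2, 2 with the effective length, 1 with the mitochondrial share as a covariate, and 0 to 1 without 1 library. For any difference among the 4 groups it was 2, and 3 with DESeq2, 1 with library size alone, with no filter and with the length offset, 0 with limma at either pseudocount and without V2523 and V2503, and 0 to 2 without 1 library (0 without V2503, V2508 or V2509). In the other 3 comparisons it was 0 throughout. The cause of these shifts was not tested. The numbers of the mice differ between groups. No paired analysis was possible because the groups share no replicate number.

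Among the values that passed no test, several lay so near 0 that the sign of the log2 fold change turned, and the cause was not tested. With scaling by library size alone it was, in HFpEF+Veh against non_failing Notch3 0.0448, in HFpEF+TYA-018 against HFpEF+Veh Rgs5 -0.101, in HFpEF+TYA-018 against HFpEF+SGLT2i Pdgfrb -0.0391, Myh11 -0.043, in HFpEF+TYA-018 against non_failing Pdgfrb -0.0373, Myh11 -0.0142, Tagln -0.0314. With DESeq2 it was, in HFpEF+TYA-018 against HFpEF+SGLT2i Abcc9 0.00144. With limma on log2(TPM + 1) it was, in HFpEF+Veh against non_failing Notch3 0.0466, in HFpEF+TYA-018 against HFpEF+Veh Rgs5 -0.0863, in HFpEF+TYA-018 against HFpEF+SGLT2i Pdgfrb -0.0328, Myh11 -0.0627, in HFpEF+TYA-018 against non_failing Pdgfrb -0.0161, in HFpEF+SGLT2i against non_failing Cnn1 0.06. With limma on log2(TPM + 0.1) it was, in HFpEF+Veh against non_failing Notch3 0.0525, in HFpEF+TYA-018 against HFpEF+Veh Rgs5 -0.0867, in HFpEF+TYA-018 against HFpEF+SGLT2i Pdgfrb -0.0342, Myh11 -0.0692, in HFpEF+TYA-018 against non_failing Pdgfrb -0.0173, in HFpEF+SGLT2i against non_failing Cnn1 0.141. With the length offset it was, in HFpEF+TYA-018 against HFpEF+SGLT2i Myh11 -0.00723, in HFpEF+SGLT2i against non_failing Pdgfrb -0.00374. With V2523 and V2503 left out it was, in HFpEF+Veh against non_failing Notch3 0.0435, Cnn1 -0.0376, in HFpEF+TYA-018 against HFpEF+Veh Cnn1 0.147, in HFpEF+TYA-018 against non_failing Myh11 -0.00476, Tagln -0.0325, in HFpEF+SGLT2i against non_failing Myh11 -0.0124. With V2523 and V2532 left out it was, in HFpEF+Veh against non_failing Notch3 0.0392, in HFpEF+TYA-018 against HFpEF+Veh Cnn1 0.0527, in HFpEF+TYA-018 against HFpEF+SGLT2i Abcc9 0.00443. With the effective length as a covariate it was, in HFpEF+Veh against non_failing Tagln -0.0337, in HFpEF+SGLT2i against HFpEF+Veh Kcnj8 0.0799, Pdgfrb 0.0412, Cspg4 -0.147, in HFpEF+TYA-018 against HFpEF+SGLT2i Abcc9 0.182, Pdgfrb -0.101, Myh11 -0.127, Tagln -0.0509, in HFpEF+TYA-018 against non_failing Kcnj8 -0.0182, Pdgfrb -0.0535, Myh11 -0.0562, Tagln -0.144. With the mitochondrial share as a covariate it was, in HFpEF+TYA-018 against HFpEF+SGLT2i Abcc9 0.0223, in HFpEF+TYA-018 against non_failing Tagln -0.00406, in HFpEF+SGLT2i against non_failing Pdgfrb -0.00396, Myh11 -0.00146. Without 1 library the ranges that crossed 0 were, in HFpEF+Veh against non_failing Notch3 -0.0508 to 0.0547, Tagln -0.0704 to 0.209, in HFpEF+TYA-018 against HFpEF+Veh Rgs5 -0.00874 to 0.0745, Pdgfrb -0.086 to 0.00246, Acta2 -0.204 to 0.0866, Myh11 -0.181 to 0.0266, Tagln -0.129 to 0.0789, Cnn1 -0.186 to 0.149, in HFpEF+SGLT2i against HFpEF+Veh Kcnj8 -0.0663 to 0.041, Myh11 -0.188 to 0.019, in HFpEF+TYA-018 against HFpEF+SGLT2i Abcc9 -0.0565 to 0.0465, Pdgfrb -0.028 to 0.0479, Myh11 -0.0799 to 0.0547, in HFpEF+TYA-018 against non_failing Kcnj8 -0.0163 to 0.0986, Pdgfrb -0.0203 to 0.0497, Myh11 -0.0501 to 0.233, Tagln -0.0759 to 0.173, in HFpEF+SGLT2i against non_failing Pdgfrb -0.0241 to 0.0371, Myh11 -0.0376 to 0.226, Tagln -0.24 to 0.00823, Cnn1 -0.216 to 0.181. The median log2 fold change of all genes in HFpEF+TYA-018 against HFpEF+Veh was -0.00877, and -0.137 with scaling by library size alone. Over all genes, the count called in HFpEF+TYA-018 against HFpEF+Veh was 266, and 1096 with library size alone, 402 with DESeq2, 618 with no filter, 38 and 41 with limma and 58 with a model of 2 groups. In HFpEF+SGLT2i against HFpEF+Veh it was 117, and 457 with no filter, 0 with limma at either pseudocount and 3 with a model of 2 groups. Between the drugs it was 0, and 185 with DESeq2 and 5 with the length offset. Against non_failing, limma called 612 and 623 in HFpEF+TYA-018 (1017 with edgeR) and 521 and 530 in HFpEF+SGLT2i (888 with edgeR). Cspg4 and Cnn1 had the fewest counts and the widest 95% intervals of the 10 in HFpEF+Veh against non_failing, and the part of depth in these intervals was not tested.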
